A study of Mus musculus with 4 samples.

Results

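Growth factor receptors of the myeloid lineage were measured cell by cell in monocytes and macrophages of the mouse colon. The 6 genes described here, Csf1r, Csf2ra, Csf2rb, Csf2rb2, Csf3r and Flt3, were chosen by name from a table of 28692 genes. All 6 were in the table. The cells came from 4 male C57/Bl6N mice. DEP 11 and DEP 13 were gavaged with diesel exhaust particles (DEP; a dose of 12 µg in 200.0 µL of phosphate-buffered saline [PBS], given 5 times weekly over roughly 6 months), and PBS 2 and PBS 3 were gavaged with PBS alone on the same schedule. The labels name no genetic modification. The gavage itself and the sort were shared by both groups. The sort gate took CD11b+ cells of the lamina propria that also stained for Ly6C, CD64 or both, all mice were sorted in 1 batch, and each library is 1 animal. Ages are not given in the labels.

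The values are counts of unique molecular identifiers (UMIs), each of which marks 1 captured transcript end. Of 6954 barcodes, 4771 had at least 1000 UMIs and are called cells below: 1218 from DEP 11, 675 from DEP 13, 1296 from PBS 2, and 1582 from PBS 3. Total counts per mouse lay between 4489342 UMIs in DEP 13 and 10293703 in PBS 2, and the median cell held between 5328.5 UMIs in DEP 11 and 7115.5 in PBS 2. Only 36 barcode sequences occurred in more than 1 library, 12 of them among cells. Lymphocyte markers (at least 3 UMIs over T cell, B cell or plasma cell genes) were found in 243 cells (5.09%), and 58 cells (1.22%) were called doublets, most often in DEP 13 (3.26% of its cells). Levels are given in CPM, the UMIs of a gene summed over the cells of a mouse, divided by all UMIs of those cells and scaled to 1000000. Such a level averages cells that carry the transcript and cells that do not.

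Csf1r encodes the receptor for CSF1 and IL-34, a tyrosine kinase on which most tissue macrophages depend for survival and which marks the mononuclear phagocyte lineage. GM-CSF acts through a heteromer of its specific alpha chain (Csf2ra) and a beta chain shared with the receptors for IL-3 and IL-5 (Csf2rb). Mice carry a second beta chain gene, Csf2rb2, which serves the IL-3 receptor alone. Csf3r encodes the G-CSF receptor, best known from neutrophils and also made by monocytes, and Flt3 encodes a tyrosine kinase of progenitors and dendritic cells. In the gut, Ly6C-high monocytes enter the lamina propria and mature into macrophages that lose Ly6C and make complement C1q, so that Ly6c2 and C1qa mark the ends of this course.

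On the build of the files, mm10, with the GENCODE M21 annotation, Csf2rb at chr15:78325752-78353847 on the forward strand and Csf2rb2 at chr15:78282507-78305721 on the reverse strand are neighbours and near copies. Their coding parts, of 2688 and 2634 bases, were identical at 95.2% of aligned bases. Because a read from a shared stretch cannot be placed, a stretch near the end of the coding parts (bases 2545 to 2634 of each, from GENCODE M21 transcripts Csf2rb-206 and Csf2rb2-201) is shown 5′ to 3′ with the 6 differing bases in capitals.
Csf2rb: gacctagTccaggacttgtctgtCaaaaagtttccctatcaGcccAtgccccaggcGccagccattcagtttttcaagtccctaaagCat
Csf2rb2: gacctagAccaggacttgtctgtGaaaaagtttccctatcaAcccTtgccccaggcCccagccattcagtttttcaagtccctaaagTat
Of the 100-base windows of the coding parts, 11.05% of those of Csf2rb and 11.3% of those of Csf2rb2 also occurred in the other gene, but 0 of 901 windows in the last 1000 bases of either transcript did. The last 500 bases, towards which a 3′ protocol is directed, were identical at 86.3% of aligned bases. Reads from the last 1000 bases would thus have no 100-base stretch in common, while reads from further upstream could have been lost or shared. The positions of the reads were not analysed here.

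In the same annotation Csf1r lies at chr18:61100598-61132149 on the forward strand, Csf2ra at chr19:61223957-61228429 on the reverse strand, Csf3r at chr4:126024550-126044440 on the forward strand and Flt3 at chr5:147330741-147400489 on the reverse strand.

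Csf1r was the member with the most UMIs over all cells, 18369 in all. Its level was 640.1 CPM in DEP 11, 531 in DEP 13, 671 for PBS 2 and 478 for PBS 3. Csf2ra held 3841 UMIs, at 134, 106, 147 and 96.0 CPM in the same order of mice, and Csf2rb held 3094, at 107, 102, 108 and 81.1 CPM. For all 3 genes PBS 2 had the highest level and PBS 3 the lowest, so the control mice enclosed the DEP mice. Csf2rb2 held 608 UMIs, with a mean level of 20.0 CPM ± 3.14 (SD, n = 4 mice). Csf3r held 1038, with a mean of 33.6 CPM ± 4.90 (SD, n = 4). Flt3 held 113 UMIs in 98 cells, and 50 of these UMIs were in DEP 11. Its level of 6.83 CPM there compared with 2.75 in DEP 13, 3.28 in PBS 2 and 1.86 in PBS 3. The order of members is one of UMI counts. The 3′ protocol counts transcript ends, which does not scale with transcript length but does vary with how well each end is captured, so the distance between genes is not a ratio of transcript numbers.

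To describe the receptors along the path from monocyte to macrophage, cells were divided by Ly6c2 (high: at least 2 UMIs and 3 per 10000) and C1qa (high: at least 2 UMIs and 10 per 10000), neither of which is a receptor. This gave 425 Ly6c2-high C1qa-low cells (8.91%), 333 cells high for both (6.98%), 3297 Ly6c2-low C1qa-high cells (69.1%) and 716 cells low for both (15.0%). Genes that did not define the gates followed the same order. Over 8 monocyte genes, Ly6c2 left out, the summed level was 6591 to 7167 CPM across mice in Ly6c2-high C1qa-low cells and 801 to 1246 CPM in Ly6c2-low C1qa-high cells. Over 9 macrophage genes, C1qa left out, it was 10245 to 16857 CPM and 39341 to 48473 CPM, respectively. C1qa UMIs were nevertheless found in 97.5% of all cells, so most cells of the C1qa-low gates held some. Whether those cells make C1qa or carry its RNA from other cells was not tested.

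Csf1r was higher in macrophage-like cells. In the 4 mice, taken as DEP 11, DEP 13, PBS 2 and PBS 3, its level was 528, 367, 475 and 308 CPM in Ly6c2-high C1qa-low cells. It was 721, 599, 707 and 522 CPM in Ly6c2-low C1qa-high cells. Every mouse had more in the C1qa-high cells, although the ranges over mice overlapped, and the mice differed among themselves by about as much as the gates. In the fit with the mouse as a block, Csf1r fell by 0.62 on the log2 scale in Ly6c2-high C1qa-low cells (SE 0.070, edgeR quasi-likelihood FDR 1.43e-06). Cells high for both genes, at 418 CPM ± 93.7, and cells low for both, at 433 CPM ± 119.7 (SD, n = 4), lay beside the Ly6c2-high C1qa-low cells at 419.5 CPM ± 100.1. The means of these 3 gates lay within their spread, and the order of the gates was not the same in all mice. Cells high for both had 448 and 362 CPM in DEP 11 and DEP 13, and cells low for both 420.3 and 346 CPM, so both DEP mice had the most in Ly6c2-high C1qa-low cells and the least in cells low for both. In PBS 2 and PBS 3 the values were 537 and 328 CPM in cells high for both and 605 and 359 CPM in cells low for both, which is the reverse order. This difference between the groups was not tested. The Ly6c2-low C1qa-high cells were above each of the other gates in 4 of 4 mice.

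Csf3r had the opposite order. Its level was 63.0 CPM in DEP 11, 63.2 in DEP 13, 57.6 for PBS 2 and 38.1 for PBS 3 among Ly6c2-high C1qa-low cells. Among Ly6c2-low C1qa-high cells it was 29.7, 28.6, 31.2 and 23.9 CPM in the same order. The ranges did not overlap. The fitted difference was 0.95 on the log2 scale (SE 0.15, edgeR quasi-likelihood FDR 7.28e-05), a 1.93-fold higher level in the Ly6c2-high cells, resting on 128 and 664 UMIs. Cells low for both genes (46.6 CPM ± 12.3) and cells high for both (40.6 CPM ± 11.1; SD, n = 4) were also above the Ly6c2-low C1qa-high cells (28.4 CPM ± 3.15) in 4 of 4 mice, without overlap.

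Because Csf3r is a neutrophil gene, neutrophil markers were read beside it. Over 9 such genes the summed level was 21.9 to 48.4 CPM in Ly6c2-high C1qa-low cells and 2.23 to 3.40 CPM in Ly6c2-low C1qa-high cells, so it moved with Csf3r. Nearly all of it was Mmp8, with 209 UMIs over all cells. Of the other genes on the list, S100a9, Camp and Ngp had 0 UMIs, which allows up to 0.0955 CPM each, S100a8 had 11, Ly6g and Ltf 5 each, and Retnlg and Cxcr2 2 each. Plasma cell genes stood at 2090.1 to 10598 CPM against 1286 to 4018 CPM, with overlapping ranges, and their sum was not tested. Without lymphocyte-marked cells, Csf3r was still 0.97 higher on the log2 scale (edgeR FDR 2.31e-05). The gates also differed in depth, with medians of 5122 and 6623 UMIs per cell, and Csf3r was lower in deeper cells. In cells of 4000 to 8000 UMIs alone, a range chosen after seeing the data, the difference was 0.88 (edgeR FDR 0.000731).

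Csf2rb2, the beta chain of the IL-3 receptor, followed Csf1r with much less depth. The 4 mice had 14.3, 14.6, 6.40 and 15.6 CPM in Ly6c2-high C1qa-low cells, from 10, 6, 4 and 9 UMIs. They had 24.5, 26.7, 22.0 and 17.3 CPM in Ly6c2-low C1qa-high cells, from 510 UMIs in all. The ranges did not overlap, although in PBS 3 the gates stood at 15.6 and 17.3 CPM. The fitted log2 difference was -0.84 (SE 0.27, edgeR quasi-likelihood FDR 0.0240). That call did not hold without DEP 11 (edgeR FDR 0.0895), without PBS 2 (0.162), with both gate rates halved (0.370), with DESeq2 (adjusted p 0.115), without the mouse block (0.0508) or in cells of 4000 to 8000 UMIs, where the difference was -0.43 (0.328).

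The receptor for GM-CSF itself did not differ detectably between the gates. Csf2ra stood at 143, 102, 186 and 93.4 CPM in Ly6c2-high C1qa-low cells and at 133, 107, 140.0 and 99.4 CPM in Ly6c2-low C1qa-high cells. It was higher in the former in DEP 11 and PBS 2 and lower in DEP 13 and PBS 3. Csf2rb stood at 123, 82.7, 115 and 98.6 CPM against 103, 104, 108 and 77.8 CPM, with overlapping ranges. The log2 differences were 0.13 for Csf2ra (2 SE on either side, -0.08 to 0.33; edgeR FDR 0.395) and 0.12 for Csf2rb (-0.10 to 0.35; FDR 0.465). These intervals leave room for a difference of up to about 0.35 on the log2 scale and do not show equality. In all, 3 of the 5 tested members were called between these gates, 1 higher and 2 lower in Ly6c2-high C1qa-low cells, where 31.0% of 7002 tested genes were called (16.5% higher and 14.6% lower). With only 5 members, 3 calls beside this background are not read as particular to the receptors.

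**Figure D1:**
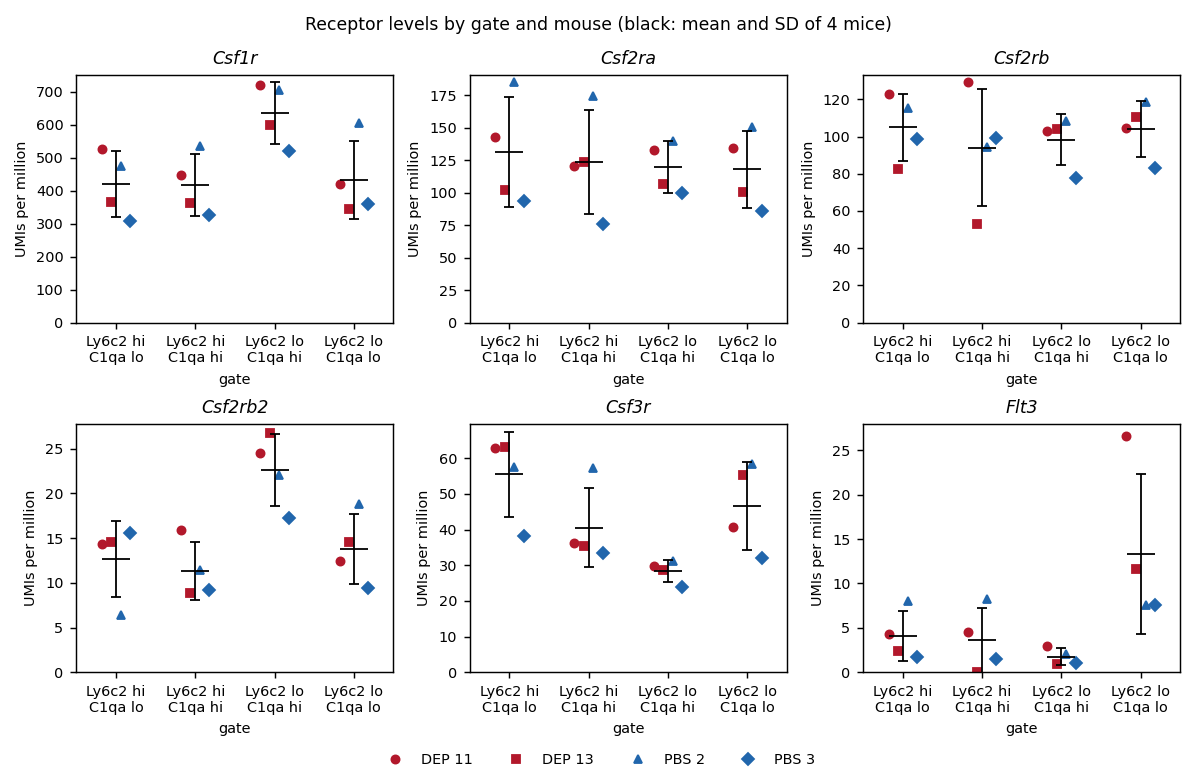
Level of each receptor (CPM, vertical axes from 0) in the 4 gates of Ly6c2 and C1qa, with a point per mouse and black bars for the mean and SD of 4 mice. Csf1r is highest in Ly6c2-low C1qa-high cells (mean 637), Csf3r is lowest there (mean 28.4), and for Csf2ra and Csf2rb the mice of Ly6c2-high C1qa-low and Ly6c2-low C1qa-high cells overlap.

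Flt3 fell under the filter for the gate comparison (detection in 5% or more of a gate's cells) and was described only. Cells low for both genes had 26.6 CPM in DEP 11, 11.6 in DEP 13, 7.52 for PBS 2 and 7.56 for PBS 3. Ly6c2-low C1qa-high cells had 2.97, 0.954, 2.01 and 1.09 CPM. These ranges did not overlap, and the levels rest on 50 and 42 UMIs. Ly6c2-high C1qa-low cells had 4.29, 2.43, 7.996 and 1.73 CPM from 10 UMIs, and cells high for both 4.54, 0, 8.31 and 1.52 CPM from 11 UMIs. Cells low for both thus had the highest level in 3 of 4 mice, and in PBS 2 both Ly6c2-high gates stood above them. Without the gene filter the difference of Ly6c2-high C1qa-low from Ly6c2-low C1qa-high cells was 1.16 on the log2 scale (SE 0.68, edgeR FDR 0.336).

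Over finer steps of C1qa (under 3, 3 to 10, 10 to 30 and at least 30 UMIs per 10000), Csf1r did not climb evenly. Its mean over mice was 480.1, 415, 468 and 671 CPM, and only the last step was above the others in 4 of 4 mice. Csf3r went from 62.8 to 47.1, 34.1 and 27.8 CPM. Flt3 in the first step was 28.0 CPM in DEP 11 and 15.3 CPM in DEP 13, from 12 UMIs, and 0 in both PBS mice. From the second step on its mean was 9.23, 4.62 and 1.17 CPM and went down at each step in each mouse, with 24 UMIs in the last. Csf2rb2 was higher in the last step (23.8 CPM) than in the step before it (15.4 CPM) in 4 of 4 mice. Csf2ra lay between 115 and 137 CPM in every step and Csf2rb between 97.3 and 126 CPM on average.

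Over steps of Ly6c2 (0, under 3, 3 to 10 and at least 10 UMIs per 10000), Csf1r had means of 627, 559.7, 449 and 391 CPM and went down at each step in each mouse. In PBS 3, for example, it was 511, 492, 363 and 235 CPM. Csf3r went from 29.4 to 53.1 CPM on average between the steps under 3 and 3 to 10, upwards in 4 of 4 mice. These steps share cells with the gates and were not tested separately.

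**Figure D2:**
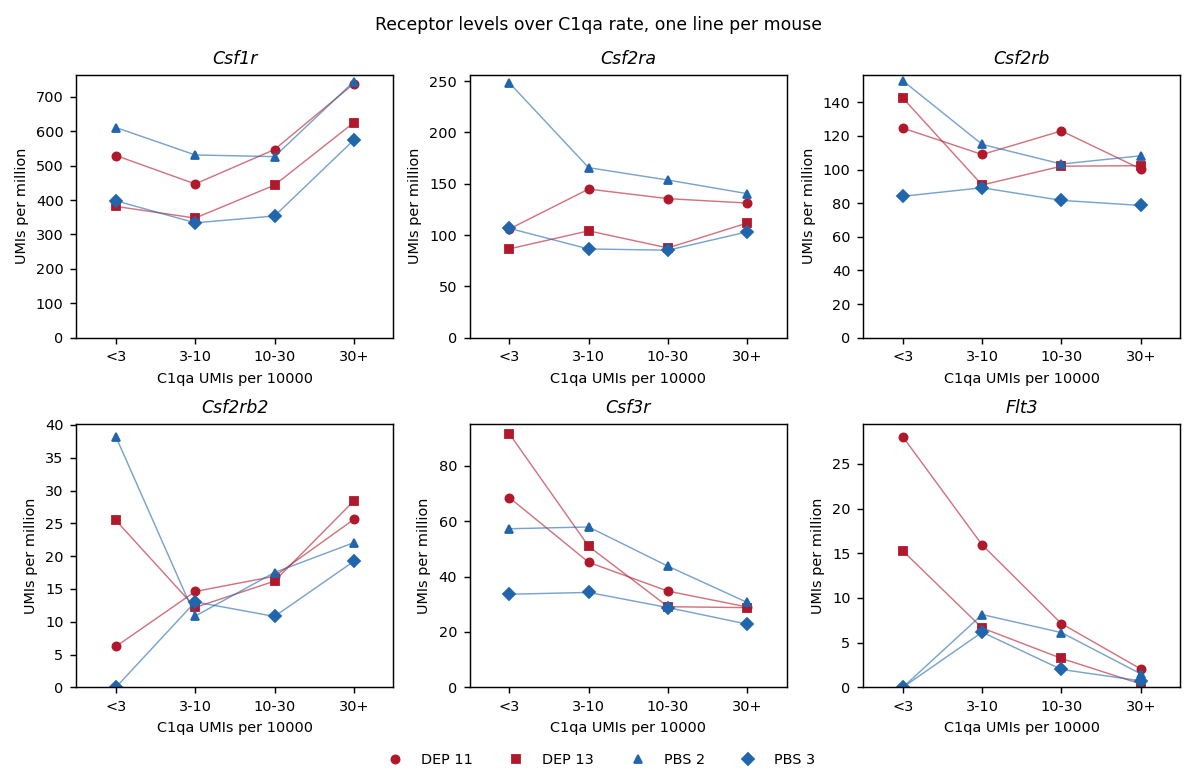
Level of each receptor (CPM, vertical axes from 0) over steps of the C1qa rate of the cell, with a line per mouse. Csf1r is highest at 30 or more C1qa UMIs per 10000 in every mouse, the mean of Csf3r is lowest there, and the first step is thin, with 9 Csf2rb2 UMIs and 12 Flt3 UMIs.

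Cd209a encodes a C-type lectin used as a marker of monocyte-derived dendritic cells and of type 2 conventional dendritic cells. At least 1 Cd209a UMI was present in 347 cells (7.27%) and at least 2 in 137. Of the 347, 197 were Ly6c2-low C1qa-high, 86 low for both genes, 36 Ly6c2-high C1qa-low and 28 high for both. Cells low for both made up 38.0 and 35.7% of the class in DEP 11 and DEP 13, and 10.1 and 21.6% in PBS 2 and PBS 3. Over 10 dendritic cell genes, Cd209a and Flt3 left out, the summed level was 392 to 623 CPM in cells with 2 or more Cd209a UMIs, 259.9 to 388 CPM in cells with 1 and 258 to 317 CPM in cells without any. Zbtb46, a transcription factor of conventional dendritic cells, had 12 UMIs in all cells together, so the class is described by its Cd209a UMIs and given no cell type name.

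Flt3 had few UMIs on either side of the Cd209a division. Its level in cells with a Cd209a UMI was 18.9 CPM in DEP 11, 0 in DEP 13, 8.37 for PBS 2 and 7.18 for PBS 3, against 5.25, 3.01, 2.75 and 1.45 CPM in cells without one. It was higher with Cd209a in 3 of 4 mice. In DEP 13 there was no Flt3 UMI among 42 such cells, so the ranges overlapped. There were 29 UMIs on the Cd209a side. Flt3 was detected in 6.63% of cells with Cd209a and 1.70% of those without, so it passed the filter of 5% only through the class where it is high, and the filtered fit is not used to call it. In the fit of all genes with no filter the log2 difference was 1.57 (SE 0.42, edgeR quasi-likelihood FDR 0.0110), where 2.32% of 16791 genes were called. Fits with no filter also called 119 genes between DEP and PBS over all cells, where the filtered fit called 0, so this value is given as a description and not as a call.

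Most of these UMIs lay in the cells with more Cd209a. Cells with exactly 1 Cd209a UMI had 6 Flt3 UMIs (3.29 CPM ± 3.80), near the level of cells with none (3.11 CPM ± 1.58), and cells with 2 or more had 23 (16.04 CPM ± 14.8; SD, n = 4). Seen from the other side, 23 of the 98 cells with a Flt3 UMI held Cd209a (23.5%, exact binomial 95% interval 15.5 to 33.1%), against 7.27% of all cells, and 4 held Zbtb46, against 11 of all cells. Intervals of shares cover counting error only. The 98 cells were spread over the gates, 41 in Ly6c2-low C1qa-high cells and 38 among cells low for both, and 40 of them came from DEP 11. Lymphocyte markers were on 10 of them (10.2% against 5.09% of all cells). Flt3 stood at 16.5 CPM, from 6 UMIs, over the cells marked by T cell genes.

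Csf1r was lower in the cells with Cd209a. The mice, as DEP 11, DEP 13, PBS 2 and PBS 3, had 439.7, 415, 658 and 336 CPM with a Cd209a UMI and 666, 542, 672 and 489 CPM without. The level was lower in 4 of 4 mice, but by little in PBS 2, and the ranges overlapped. The log2 difference was -0.34 (SE 0.080, edgeR quasi-likelihood FDR 0.0212). This call was also fragile, with edgeR FDR 0.203 without DEP 11, 0.0848 without PBS 3, 0.0697 with the likelihood ratio test, 0.644 without the mouse block, 0.297 with cells thinned to 1000 UMIs and 0.536 in cells of 4000 to 8000 UMIs.

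With exactly 1 Cd209a UMI the Csf1r level was 574 CPM in DEP 11, 486 in DEP 13, 707 for PBS 2 and 416 for PBS 3. In PBS 2 this was above the 672 CPM of its cells without Cd209a. With 2 or more Cd209a UMIs the Csf1r level was 283 CPM in DEP 11, 284 in DEP 13, 573 for PBS 2 and 186 for PBS 3. Against cells without Cd209a the log2 difference was then -0.87 (edgeR FDR 0.00126). In that comparison 5.21% of 7427 tested genes were called (2.11% higher and 3.1% lower). The macrophage gene sum moved with Csf1r, at 11015 to 25845 CPM in these cells against 37935 to 47804 CPM in cells without Cd209a. The part of the other macrophage genes and of the gate makeup in the Csf1r difference was not tested.

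The other members gave no detectable difference by Cd209a. The log2 differences were -0.04 for Csf2ra (edgeR FDR 0.923), 0.06 for Csf2rb (0.885), -0.33 for Csf2rb2 (0.583) and -0.26 for Csf3r (0.552). Csf2ra, for example, stood at 134, 111, 145 and 73.3 CPM with Cd209a and at 133, 105, 147 and 97.8 CPM without, which is the same order of mice on both sides. Flt3 aside, 1 of 5 members, Csf1r, was called by Cd209a, where 3.03% of 7227 tested genes were called (1.44% higher and 1.59% lower). Plasma cell genes were at 1608 to 15329 CPM in cells with Cd209a and at 1523 to 5258 CPM in those without. Without lymphocyte-marked cells, Csf1r kept its call (log2 difference -0.28, edgeR FDR 0.0473). Median depths were 6850.0 UMIs with Cd209a and 5727.5 without.

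**Figure D3:**
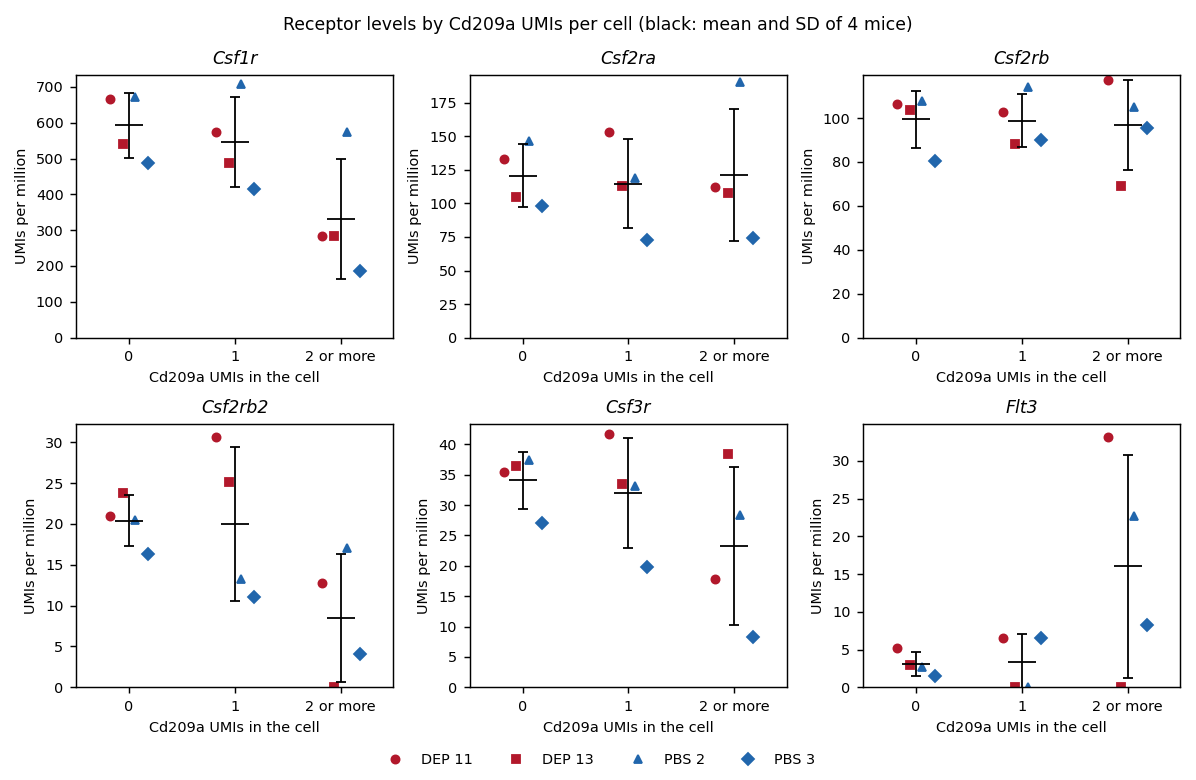
Level of each receptor (CPM, vertical axes from 0) in cells with 0, 1 and 2 or more Cd209a UMIs, with a point per mouse and black bars for the mean and SD of 4 mice. In the class of 2 or more, Flt3 reaches 33.2 in DEP 11 and is 0 in DEP 13, and Csf1r is below its level in cells with none in every mouse.

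The design asks whether DEP gavage changed the receptors. Groups of 2 mice were compared over all cells, in Ly6c2-high C1qa-low cells, in Ly6c2-low C1qa-high cells and in cells with Cd209a, and no member that was tested was called. Flt3 passed the filter only in the cells with Cd209a. Over all cells, 0 of 5 tested members were called, where 0.0% of 6609 tested genes were. The makeup of these cells was not the same in the groups. Ly6c2-high C1qa-low cells made up 11.2 and 10.7% in DEP 11 and DEP 13 and 7.72 and 7.40% in PBS 2 and PBS 3, and Ly6c2-low C1qa-high cells 64.0 and 67.1% against 72.6 and 71.0%. The part of this makeup in the values over all cells was not tested. The smallest member p was that of Csf2rb2, whose level was 21.2 CPM in DEP 11 and 23.2 in DEP 13 against 19.9 in PBS 2 and 15.7 in PBS 3. The groups did not overlap. The log2 difference was 0.32 (2 SE on either side, -0.06 to 0.70), with an edgeR quasi-likelihood p of 0.131 and an FDR of 0.997. Csf3r stood at 34.9 and 36.3 CPM in DEP mice and at 36.8 and 26.3 CPM in PBS mice, and its log2 difference was 0.18 (-0.19 to 0.56; edgeR FDR 0.997).

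For the better counted members the intervals were not narrow either, and the control mice stood apart from each other. Csf1r differed by 0.04 on the log2 scale (2 SE on either side, -0.32 to 0.39), Csf2ra by -0.01 (-0.40 to 0.39) and Csf2rb by 0.15 (-0.16 to 0.46), all with an edgeR FDR of 0.997. Without PBS 3 the Csf1r level of the DEP mice, 640.1 and 531 CPM, would stand below the remaining control, and without PBS 2 above it. Flt3 did not pass the filter. Without that filter its log2 difference was 0.92 (SE 0.38, edgeR FDR 0.741), with 50 of its 113 UMIs in DEP 11.

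No member was called within the gates either. In Ly6c2-high C1qa-low cells 0 of 5 tested members were called (0.0% of 5799 genes), with log2 differences between -0.14 for Csf2ra and 0.41 for Csf2rb2 and for Csf3r. In Ly6c2-low C1qa-high cells 0 of 5 were called (0.0% of 6867 genes), with the smallest member p again that of Csf2rb2. It stood at 24.5 and 26.7 CPM in DEP mice and at 22.0 and 17.3 CPM in PBS mice, without overlap, a log2 difference of 0.39 (2 SE on either side, -0.02 to 0.80; edgeR p 0.0859, FDR 0.9997). In cells with Cd209a 0 of 6 were called (0.0% of 7140 genes), with log2 differences from -0.16 for Csf1r to 0.78 for Csf2rb2 and 0.68 for Flt3, and cells low for both Ly6c2 and C1qa made up more of this class in the DEP mice, as given above. At an unadjusted p under 0.05 the edgeR fits held 171 genes over all cells, 224 in Ly6c2-high C1qa-low, 263 in Ly6c2-low C1qa-high and 211 in Cd209a-positive cells, none of them a member, and DESeq2 called 4, 1, 6 and 1 genes.

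Whether the DEP difference itself changed between Ly6c2-high C1qa-low and Ly6c2-low C1qa-high cells was tested as an interaction. None of the 5 tested members was called, where 0.214% of 7002 genes were (0.0714% higher and 0.143% lower). The interaction was 0.09 on the log2 scale for Csf1r (SE 0.14, edgeR quasi-likelihood FDR 0.977), -0.17 for both Csf2ra and Csf2rb, 0.04 for Csf2rb2 and 0.31 for Csf3r (FDR 0.970). For Csf2rb2, with an SE of 0.59, a change of more than 1 on the log2 scale in either direction lies within 2 SE.

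**Figure D4:**
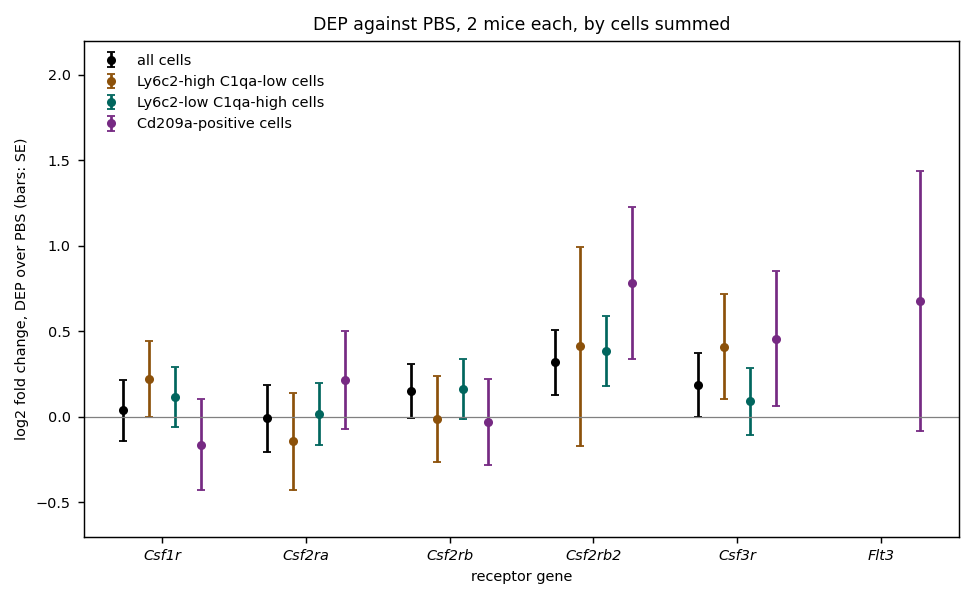
Log2 fold change of each tested receptor, 2 DEP over 2 PBS mice (bars for SE), over all cells, within 2 gates and in cells with a Cd209a UMI. Over all cells Csf1r lies at 0.04 and Csf2rb2 at 0.32. Flt3 has a point only for the cells with Cd209a.

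Shares of cells with a receptor UMI depend on depth and were therefore read after thinning each cell to 1000 UMIs. Csf1r was then found in 45.0% of cells in DEP 11, 41.3% in DEP 13, 46.5% for PBS 2 and 37.3% for PBS 3 (before thinning 89.1, 86.5, 93.1 and 83.6%). Over the 243 lymphocyte-marked cells the thinned share was 25.9%. These cells came through the same sort, at 286 CPM of Csf1r, and whether they lack the receptors was not tested, so their shares are given for comparison only. For Csf2ra the mean share was 11.4% in DEP and 12.7% in PBS mice (lymphocyte-marked cells 5.76%). For Csf2rb it was 10.3 and 8.36% (lymphocyte-marked cells 4.94%). The thinned Csf2rb2 share was 2.55% in DEP and 1.61% in PBS mice, and that of Csf3r 3.95 and 3.98%, with 0.412 and 2.47% in lymphocyte-marked cells. Flt3 shares, at 0.403 and 0.428%, were under the 0.823% of lymphocyte-marked cells, and no difference is read from them at this depth. The marked cells were deeper before thinning, at a median of 8568 UMIs against 5838 for all cells.

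No difference in these shares could be shown with 2 mice a group. Csf2rb (10.3 ± 0.970 against 8.36 ± 1.72%, SD, n = 2 mice each) and Csf2rb2 (2.55 ± 0.586 against 1.61 ± 0.128%) were higher in both DEP mice than in both PBS mice, at an exact two-sided permutation p of 0.333, the smallest that 2 against 2 mice can give, and 1 after Benjamini-Hochberg adjustment over the 30 shares tested. Over all cells, both gates and the Cd209a-positive cells together, the groups did not overlap in 8 of 24 thinned shares, 6 of them higher and 2 lower in DEP mice. Of the 6 ways to assign these mice to groups, 2 give groups that do not overlap, so nothing is read from this count. The lower ones were Csf2ra in Ly6c2-high C1qa-low cells (10.7 against 12.98%) and Csf3r in Cd209a-positive cells (1.85 and 0% against 5.50 and 5.68%), at the same p of 0.333 by the exact permutation test. The latter rest on 2, 0, 6 and 5 cells, and the Csf3r level in Cd209a-positive cells had the other sign, at 30.7 and 35.2 CPM in DEP mice against 31.4 and 15.8 CPM in PBS mice, with overlapping groups. Before thinning Csf2rb had the reverse sign, 40.4% against 42.4%, and PBS 2 was the deepest library.

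Levels also went with the depth of the barcode, and not alike for all members. Csf3r had a mean level over mice of 129.7 CPM in barcodes with under 500 UMIs, 109 CPM at 500 to 1000, 70.7 at 1000 to 2000, 50.4 at 2000 to 5000, 33.3 at 5000 to 10000 and 21.2 CPM in cells with at least 10000 UMIs. The lowest mouse in each class up to 2000 UMIs (61.9 CPM and above) was over the highest mouse from 5000 UMIs on (39.0 CPM). Csf2rb had 266 and 224 CPM in the shallowest barcodes and 95.9 CPM in the deepest cells, and Csf2rb2 47.9 and 57.5 CPM against 19.8 CPM, but from 2000 UMIs on both were nearly level. Csf2ra had 211 CPM under 500 UMIs and between 108 and 126 CPM in every class above. Flt3 had 8.33 CPM at 500 to 1000 UMIs, from 3 UMIs. In the deepest cells it had 8.91 CPM in DEP 11 and between 0.451 and 0.941 CPM in the other mice. Csf1r went the other way at the shallow end, from 386 CPM under 500 UMIs to 606 CPM at 5000 to 10000, and stood at 524 CPM in the deepest cells. Barcodes under 500 UMIs numbered 1614 and those of 500 to 1000 UMIs 569. Only the cells of 1000 UMIs and over entered the main comparisons, and the Csf3r difference between the gates in cells of 4000 to 8000 UMIs is given above.

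**Figure D5:**
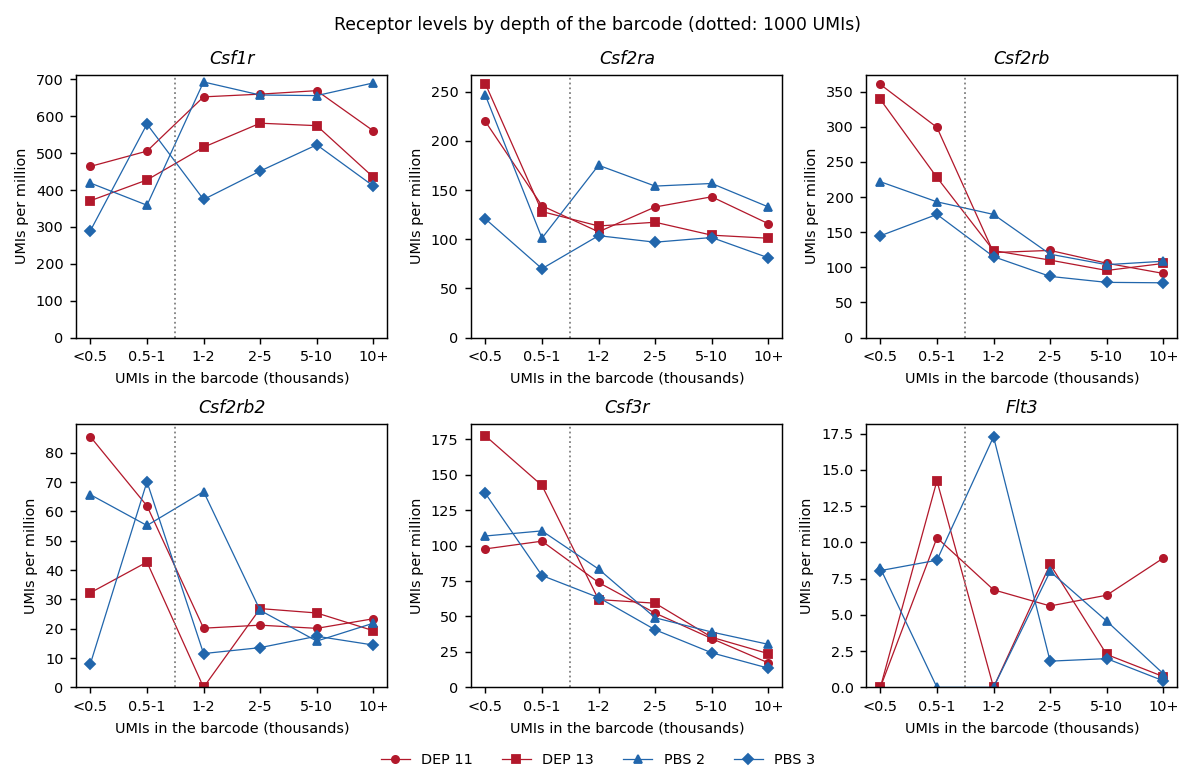
Level of each receptor (CPM) by the UMIs of the barcode, with a line per mouse, from under 500 to 10000 and over. Csf3r goes down over the whole range (mean 129.7 to 21.2 CPM). The mean of Csf2ra is highest under 500 UMIs only, and those of Csf2rb and Csf2rb2 are highest in barcodes under 1000 UMIs. That of Flt3 is highest at 500 to 1000 UMIs, from 3 UMIs.

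Few UMIs of the ligand genes of these receptors were found in the sorted cells. Csf2, which encodes GM-CSF, and Il3 had 0 UMIs among 31400179, which allows up to 0.0955 CPM. Csf1 had 41 UMIs, Csf3 19, Il34 5 and Il5 3, and none of them passed the filter for a test. The ligand of Flt3 was not analysed here.

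Genes that act beside or downstream of the receptors differed between the gates, and the counts are set here against the 31.0% of all tested genes. Of 9 tested related cytokine receptors 2 were higher and 3 lower in Ly6c2-high C1qa-low cells, with the TGF-beta receptor gene Tgfbr1 at -1.98 on the log2 scale (edgeR FDR 2.81e-08). Of 25 signalling genes next to the receptors 6 were higher and 4 lower. Tyrobp, an adaptor of myeloid receptors, was 0.43 higher (edgeR FDR 2.56e-07) and the Src family kinase gene Fgr 0.83 higher (1.34e-05). Of 7 tested feedback genes 4 were lower and 0 higher.

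Transcription factors tied to myeloid receptor genes were mostly lower, 9 of 17 against 3 higher (median of the list -0.62 on the log2 scale, against -0.02 over all tested genes). Maf was at -1.76 (edgeR FDR 3.63e-08) and Runx3 at -1.42 (6.59e-08), whereas Klf4, a monocyte factor, was 0.92 higher (3.18e-07). Of 6 tested genes linked to STAT5, 2 were higher and 4 lower, among the former Osm, a cytokine gene, at 0.86 (edgeR FDR 6.02e-06). None of the lists held a called gene in the comparisons of DEP with PBS.

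By Cd209a, Bhlhe40, a transcription factor induced by GM-CSF, was 0.95 higher on the log2 scale (edgeR quasi-likelihood FDR 0.00162), Ccnd2, a cyclin gene, 0.76 higher (0.00412) and Klf4 0.41 higher (0.0174). Maf (-0.75, edgeR FDR 0.00119), Dusp6, a phosphatase of the ERK pathway (-0.46, 0.00482), and Tgfbr1 (-0.45, 0.00585) were lower. By list, 0 of 24 tested signalling genes, 1 of 9 related receptors, 1 of 7 feedback genes, 4 of 18 transcription factors (2 higher and 2 lower) and 1 of 6 genes linked to STAT5 were called, beside 3.03% of all tested genes. Maf and Klf4 had the same sign here as between the gates, and Ccnd2, at -1.22 between the gates, had the opposite one.

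Likeness between genes was read from the Pearson correlation of log2(CPM + 1) over 16 sums, 4 mice by 4 gates, among 6609 genes. The sums share mice, and the gates differ in cell number and depth, so these are descriptions. Csf1r was most like Irf8 (r = 0.95), a transcription factor of the mononuclear phagocyte lineage, followed by Unc93b1 and Acvrl1 (both 0.92). Csf2ra was most like Junb (0.94), Tgfb1 (0.91) and Gnai2 (0.91), and Csf3r most like Gsr, Zyx and Tmpo (each 0.91). Flt3 was most like Cd209a (0.92), with Eef1g (0.86) and Srsf3 (0.85) next. Csf2rb (Lrrc41 0.89, Cog8 and Plekho2 both 0.88) and Csf2rb2 (Ctsa and Ski both 0.87, P2ry12 0.85) had lower values. Among members, Csf1r correlated at 0.60 with Csf2ra, 0.61 with Csf2rb2 and -0.14 with Csf3r.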

How the data were processed

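Single-cell libraries (10x Genomics 3′ v2) had been made from sorted colon lamina propria cells of 2 DEP and 2 PBS mice. The deposited values are UMI counts per gene and barcode, not normalized. The authors' processing notes name Cell Ranger, STAR 2.6.1a, R 3.5.1 and mm10. Per the study's methods STAR gave 1 alignment per read. The sources used here do not say whether barcodes were filtered before deposit. The study's stated filter (at least 1000 UMIs, log10 detected genes of at least 2.5, mitochondrial share above 0 and up to 7%) left 4623 of 6954 barcodes, many more than the number of cells the study states, and was run as an alternative to the minimum of 1000 UMIs used here. The lowest barcode held 101 UMIs. The mouse was read from the barcode suffix. Symbols and coordinates for 28339 of 28692 genes came from GENCODE M21 (mm10). Flt3l was not matched by symbol and was not analysed here.

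UMIs were summed per mouse and cell class. Genes over 1 CPM in at least 2 sums and detected in 5% or more of a class's cells were tested in edgeR 4.0.16 (R 4.3.3; quasi-likelihood F test with the moderation of earlier edgeR releases, TMM, Benjamini-Hochberg FDR of 5% over all tested genes). Contrasts between cell classes used 8 sums with the mouse as a block, since both classes come from the same animals, and left out the genes that defined the classes. DEP and PBS were compared over mice, each class fitted alone. Shares were compared by exact permutation (scipy 1.17.1). Tools also used were DESeq2 1.42.0, numpy 2.4.6, scanpy 1.11.5 (scrublet doublet calls per mouse, expected rate 6%, doublets kept) and biopython 1.88. The scripts were tested on simulated counts, in which all genes shared the same dispersion and mice differed only in total count. This checks the scripts and does not give the power of the real comparisons, where mice also differed gene by gene. Of 100 genes changed by 1 on the log2 scale, 74% were recovered for DEP over all cells (6609 genes), 75% between gates (7002 genes), 69% by Cd209a (7227 genes) and 29% for the interaction (7002 genes), with 8, 5, 4 and 4 unchanged genes called beside them in runs that also held 100 genes changed by 2.

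The members, gates and gene lists were chosen with earlier results of these data known. Named genes were the 6 members always, up to 4 listed pathway genes per direction and comparison with the smallest p among those called, and the 3 genes most correlated with each member. A gene that this rule would name is not reported here. The marker lists (9 to 12 genes for monocytes, macrophages, dendritic cells and neutrophils, and 4 for plasma cells) describe the gates. Alternatives were another scaling or test, no gene filter, other minimum UMIs, the study's cell filter, no lymphocyte-marked cells, no doublets, thinned cells, other gate rates or Cd209a minimum, no block and each mouse left out.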

Additional observations from a re-analysis of the deposited data

How the results depend on the processing

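Over all cells, DEP against PBS (0 called) gave 8 called genes with the likelihood ratio test, 4 with DESeq2, 119 with no gene filter and 1 in cells of 4000 to 8000 UMIs. In Ly6c2-high C1qa-low cells (0 called) these gave 8, 1, 43 and 1, thinned cells 3 and halved gate rates 6. In Ly6c2-low C1qa-high cells (0 called) they gave 18, 6, 115 and 2, and thinned cells 1. In Cd209a-positive cells (0 called) the likelihood ratio test gave 5, DESeq2 1, no gene filter 51, cells without lymphocyte markers 4 and thinned cells 3. Between the gates (2171 called) thinned cells gave 688 and halved rates 1025. By Cd209a (219 called) DESeq2 gave 145, no gene filter 389, thinned cells 48, at least 2 Cd209a UMIs 387 and cells of 4000 to 8000 UMIs 84. For the DEP effect by gate (15 called) the likelihood ratio test gave 7, DESeq2 4, no gene filter 44, cells without lymphocyte markers 6, thinned cells 5, halved and doubled rates 3 each, and cells of 4000 to 8000 UMIs 9. The causes were not tested.

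No paired analysis was possible because DEP and PBS mice share no replicate number. In the contrasts between cell classes the block is the mouse itself. Without the replicate block 1580 genes were called between the gates, 10 by Cd209a and 0 for the DEP effect by gate. The members' log2 differences between the gates were then -0.60 for Csf1r, 0.14 for Csf2ra, 0.11 for Csf2rb, -0.83 for Csf2rb2 and 0.96 for Csf3r, of which the Csf2rb2 call was lost. By Cd209a without the block Csf1r stood at -0.32, and its call was lost.

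With each mouse left out in turn, the lone mouse of a group being assumed to vary like the others, DEP against PBS called 8 to 35 genes over all cells, 0 to 4 in Ly6c2-high C1qa-low cells, 1 to 27 in Ly6c2-low C1qa-high cells and 0 to 26 in Cd209a-positive cells. The gate contrast called 1623 to 1971 genes, the Cd209a contrast 124 to 200.0 and the interaction 17 to 33. Thinned shares, DEP minus PBS, then ranged from -3.29 to 5.87 percentage points for Csf1r, -3.96 to 1.29 for Csf2ra, 0.748 to 3.17 for Csf2rb, 0.527 to 1.36 for Csf2rb2, -0.598 to 0.541 for Csf3r and -0.280 to 0.229 for Flt3.

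No member that was called changed direction in any alternative, and Csf1r and Csf3r kept their gate calls in all 19 settings (-0.67 to -0.54, highest edgeR FDR 0.00636, and 0.87 to 1.06, highest FDR 0.0279). Uncalled log2 differences crossed 0. With a mouse left out, the DEP difference of Csf1r ranged from -0.14 to 0.25 over all cells, -0.015 to 0.50 in Ly6c2-high C1qa-low, -0.044 to 0.30 in Ly6c2-low C1qa-high and -0.49 to 0.29 in Cd209a-positive cells. That of Csf2ra ranged from -0.23 to 0.27, -0.49 to 0.37, -0.17 to 0.23 and -0.10 to 0.70 in the same classes. Csf2rb ranged from -0.30 to 0.18 in Ly6c2-high C1qa-low, -0.013 to 0.37 in Ly6c2-low C1qa-high and -0.22 to 0.099 in Cd209a-positive cells. Csf2rb2 ranged from -0.16 to 1.22 in Ly6c2-high C1qa-low cells and Csf3r from -0.044 to 0.24 in Ly6c2-low C1qa-high cells. The interaction ranged from -0.025 to 0.21 for Csf1r, -0.34 to 0.12 for Csf2ra, -0.51 to 0.057 for Csf2rb and -0.68 to 0.98 for Csf2rb2. By Cd209a, Csf2ra ranged from -0.083 to 0.040 and Csf2rb from -0.015 to 0.11.

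Under the other settings, Csf2ra, DEP against PBS over all cells, became 0.0001 with at least 500 UMIs, 0.0079 without lymphocyte-marked cells, 0.017 without doublets and 0.0089 in cells of 4000 to 8000 UMIs. In Ly6c2-low C1qa-high cells it became -0.015 with no gene filter, -0.19 with thinned cells and -0.016 with doubled rates, and in Cd209a-positive cells -0.55 with thinned cells and -0.21 with at least 2 Cd209a UMIs. Csf2rb became 0.026 with at least 2000 UMIs, 0.61 with halved rates and 0.20 in cells of 4000 to 8000 UMIs in Ly6c2-high C1qa-low cells, and 0.044 with at least 2 Cd209a UMIs and 0.037 in cells of 4000 to 8000 UMIs in Cd209a-positive cells. Csf2rb2 became -0.24 with at least 2 Cd209a UMIs in Cd209a-positive cells, and Csf3r -0.11 with thinned cells in Ly6c2-high C1qa-low cells. By Cd209a, Csf2ra became 0.045 without lymphocyte-marked cells, 0.016 with at least 2 UMIs and 0.070 in cells of 4000 to 8000 UMIs, and Csf2rb -0.0025 with no gene filter. The interaction of Csf2rb became 0.46 with halved rates and 0.053 in cells of 4000 to 8000 UMIs, that of Csf2rb2 -0.070 without lymphocyte-marked cells, -0.30 with doubled rates and -0.099 in cells of 4000 to 8000 UMIs, and that of Csf3r -0.13 with thinned cells. Without thinning, the shares of Csf1r (-0.511 percentage points), Csf2rb (-1.97), Csf3r (0.160) and Flt3 (0.762), DEP minus PBS, had the opposite sign. The moderation of edgeR 4, the unblocked interaction and the range of 4000 to 8000 UMIs were chosen after seeing the data. Flt3 (113 UMIs) and Csf2rb2 (608) are the members that depth limits most.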
